A study of Rattus norvegicus with 15 samples.

Results

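The microRNAs (miRNAs) rno-miR-23a, rno-miR-23b, rno-miR-27a, rno-miR-27b and rno-miR-24 of the rat heart were followed here as the products of a pair of related gene clusters. They were chosen by name from the annotation of the arrays, with all probes of each and without the star forms, and made up 5 of the 350 rat miRNAs measured. All 5 were among the 165 miRNAs bright enough to be tested. The series set hearts of rats with diabetes and swings of plasma glucose against hearts with steadily high glucose and against control hearts. All rats were male Sprague-Dawley. The GF group (glucose fluctuation) held diabetic rats that were in addition starved for 24 h and injected intraperitoneally with insulin at 0.5 IU/kg. The DM group (diabetes mellitus) had received streptozotocin alone, a toxin of the insulin-producing cells of the pancreas, at 60 mg/kg through the tail vein. The GF rats had been given streptozotocin at 60 mg/kg as well, and both diabetic groups had plasma glucose above 300 mg/dL. The Veh group had received vehicle and had neither diabetes, starvation nor insulin. Because starvation and insulin were given to the GF rats alone, their effects and that of the glucose swings cannot be told apart. Age and the number of animals are not given in the sources used here.

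A miRNA pairs with messenger RNAs mainly through its seed, bases 2 to 8 from its 5′ end, and lowers the translation and stability of those messengers. The hairpins of miR-23, miR-27 and miR-24 lie side by side and are made from 1 primary transcript in each cluster, after which processing and turnover set the level of each mature miRNA separately. In the mouse, miR-23 and miR-27 are known for promoting vessel growth through Sprouty2 and Sema6A, and miR-27 also represses the fat-cell regulator Pparg. In rodent heart muscle cells miR-23a is known as a promoter of hypertrophy through the ubiquitin ligase MuRF1. In mouse hearts miR-24 is known for limiting death of heart muscle cells through Bim and for restraining vessel growth in endothelial cells.

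The mature sequences show why the clusters are called paralogous, and which readouts could mix. They are RefSeq's for GRCr8, written 5′ to 3′ with the seed in capitals.
miR-23a: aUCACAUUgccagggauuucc
miR-23b: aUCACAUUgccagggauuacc
miR-27a: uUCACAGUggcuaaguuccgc
miR-27b: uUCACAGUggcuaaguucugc
miR-24: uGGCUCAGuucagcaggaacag
The seed was the same within the miR-23 pair and within the miR-27 pair. Counting from the 5′ end, miR-23b differed from miR-23a by the substitution U19A alone, and miR-27b from miR-27a by C19U alone. The sequence of miR-24 was identical from both of its genes, Mir24-1 and Mir24-2, so its signal is the sum of both clusters. Probe sequences are not in the files used here. How far a probe for one paralog also reads the other was not tested, and the paralog values are uncertain to that extent.

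In RefSeq's GRCr8 annotation the a cluster lies on the minus strand of chromosome 19, with Mir23a at chr19:40859769-40859843, Mir27a at chr19:40859603-40859689 and Mir24-2 at chr19:40859455-40859562. It spans 389 bases and overlaps no other annotated gene. The b cluster lies on the minus strand of chromosome 17, with Mir23b at chr17:1819386-1819482, Mir27b at chr17:1819147-1819243 and Mir24-1 at chr17:1818669-1818736. It spans 814 bases and overlaps the protein-coding genes Fancc and Aopep and the miRNA gene Mir3074.

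Each group had 5 arrays, on 2 slides that held all 3 groups. Before averaging, the arrays were set against each other, and in 5 pairs of arrays of 1 group the differences were smaller than the measurement error stated by the scanner software (reduced chi-square 0.245 to 0.634, against 1.07 to 7.75 in the other pairs). Each such pair was averaged and counted as 1 sample, which left 3 GF, 3 DM and 4 Veh samples. Whether arrays came from separate animals is not in the labels, so part of the spread may be technical. Veh replicate 5 stood apart from its group: its reduced chi-square was 1.15 against DM replicate 1, and 3.27 to 4.11 against the other Veh arrays. DM replicates 3 and 5 stood further apart from theirs, at 4.90 to 5.63 against the other DM arrays. DM replicate 3 had 2.54 against GF replicate 1. Results without Veh replicate 5 are therefore given, and for GF against DM also those without DM replicates 3 and 5. By the array positions, Veh replicate 5 and DM replicate 1 lay at the same place on the 2 slides. So did the averaged Veh replicates 1 and 3, DM replicates 2 and 4, and DM replicates 3 and 5. The averaged GF arrays did not, and Veh replicates 2 and 4 shared a position but had 1.44. Whether position, a repeated sample or a label plays a part was not tested. The brightness of the arrays differed between groups, with a 75th percentile of the signal of 2780 ± 529 in GF, 2027 ± 256 in DM and 2205 ± 261 in Veh (SD, n = 3, 3 and 4). Signals were scaled to that percentile, and are given as log2 values. Of 165 miRNAs, 13 passed the test between GF and Veh after this scaling, 5 higher and 8 lower in GF. The calls were 15 higher and 1 lower after scaling over all probes, 16 and 2 without scaling, 7 and 3 after quantile normalization, and 3 and 13 with the total gene signal. The heart muscle markers were above background on every array for 5 of 5, with a summed scaled signal of 114861 to 132783 in GF, 126683 to 135860 in DM and 124291 to 170763 in Veh. Of these 5, miR-208 passed in GF against Veh and was lower, a call taken up below. The list median there was −0.32, beside −0.05 over all tested miRNAs. With 15 arrays taken as independent 4 of 5 passed and were lower, beside 39 of 165 miRNAs. In the other contrasts 0 of 5 passed. miR-122 of liver, miR-124 of neurons and miR-375 of islets were above background on no array.

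Each of the 5 miRNAs had 2 probes of 10 spots, and all 10 probes were well above background on 15 of 15 arrays. Median variation between the spots of a probe was 3.02% to 6.90%. The arrays averaged as pairs, which lay on different slides, differed in these miRNAs by a median of 0.033 on the log2 scale and by at most 0.098, against a median of 0.073 over all tested miRNAs. These pairs were chosen for their small differences, so the values describe them and not the precision of the arrays. In 18 of 25 cases the array on slide 2 was the lower. Precision below is limited by how few arrays there were.

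miR-23a, the first hairpin of the a cluster, had a scaled signal of 14.42 (replicates 1 and 5), 14.26 (2 and 4) and 14.47 (6) in GF hearts. In DM hearts it was 14.54 (replicate 1), 14.53 (2 and 4) and 14.51 (3 and 5), and in Veh hearts 14.56 (1 and 3), 14.31 (2), 14.50 (4) and 14.57 (5). The DM samples lay close together above all 3 GF samples, and the Veh samples spread across both. Its means were 14.38 ± 0.107 in GF, 14.53 ± 0.011 in DM and 14.49 ± 0.120 in Veh (SD, n = 3, 3 and 4).

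miR-23b, its paralog from the b cluster, had 13.88, 13.60 and 13.79 in GF hearts, in the same order of replicates. It had 13.92, 13.98 and 13.95 in DM hearts, and 13.87, 13.72, 13.85 and 14.00 in Veh hearts. The 3 GF samples were again below the 3 DM samples, here with GF replicates 1 and 5 only just below, and Veh replicate 5 was the highest of all. The means were 13.76 ± 0.143 in GF, 13.95 ± 0.026 in DM and 13.86 ± 0.114 in Veh.

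miR-27a, the second hairpin of the a cluster, had 13.09, 13.06 and 13.13 in GF hearts. It had 13.56, 13.39 and 13.16 in DM hearts and 13.40, 13.11, 13.23 and 13.38 in Veh hearts. Its GF samples were the most tightly grouped of the 5 miRNAs and lay below all DM samples, but Veh replicate 2 lay among them. The means were 13.09 ± 0.035 in GF, 13.37 ± 0.200 in DM and 13.28 ± 0.136 in Veh.

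miR-27b, of the b cluster, had 12.89, 12.73 and 12.86 in GF hearts. It had 13.09, 13.01 and 12.99 in DM hearts and 12.96, 12.75, 12.85 and 13.07 in Veh hearts. The GF samples lay below the DM samples without overlap, and within the range of Veh but for the lowest. The means were 12.83 ± 0.089 in GF, 13.03 ± 0.052 in DM and 12.91 ± 0.141 in Veh.

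miR-24, the product of both clusters, had 13.36, 13.19 and 13.28 in GF hearts. It had 13.57, 13.53 and 13.29 in DM hearts and 13.38, 13.31, 13.45 and 13.57 in Veh hearts. DM replicates 3 and 5 lay among the GF samples, so that the groups overlapped. The means were 13.27 ± 0.084 in GF, 13.46 ± 0.151 in DM and 13.43 ± 0.112 in Veh.

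**Figure D1:**
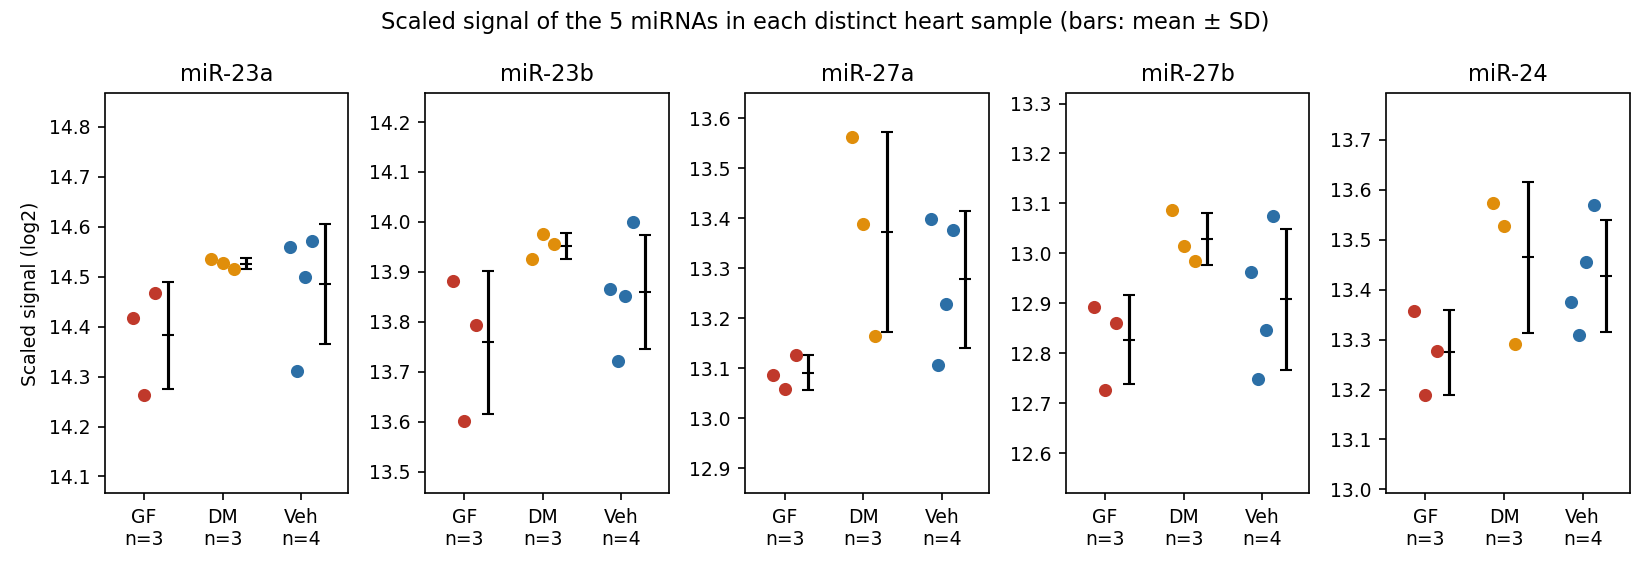
Scaled signal (log2, y axis) of miR-23a, miR-23b, miR-27a, miR-27b and miR-24 in each distinct sample (points) of the GF, DM and Veh groups, with the mean and SD as bars. Each panel spans the same height of 0.8. GF samples lie below DM samples without overlap in 4 of 5 panels, beside 12.7% of all tested miRNAs. That arrangement is lost without scaling between arrays.

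After scaling, the order of the means was DM, Veh, GF from high to low for all 5 miRNAs, and no neighbours in that order differed beyond their spread by the test. Over all samples, the range of a member was 0.31 to 0.51 on the log2 scale, or 1.24- to 1.42-fold. That is under the median range of 0.57 over all tested miRNAs in 5 of 5. The SD within groups was 0.098 to 0.141, against a median of 0.153 over all tested miRNAs.

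Between GF and Veh hearts, which ask what diabetes with glucose swings, starvation and insulin does relative to control, none of the 5 passed the test. The test was limma's moderated test over the 165 miRNAs, two-sided, with Benjamini-Hochberg adjustment and a threshold of 0.05. It called 0 of 5, against 7.88% of all tested miRNAs, and at an unadjusted p under 0.05 also 0 of 5, against 30.9%. The differences, GF minus Veh, were −0.10 ± 0.085 (SE) for miR-23a, −0.10 ± 0.090 for miR-23b, −0.19 ± 0.108 for miR-27a, −0.08 ± 0.090 for miR-27b and −0.15 ± 0.096 for miR-24, with limma adjusted p from 0.265 to 0.572. Their median of −0.10 stood beside −0.05 over all tested miRNAs. The 95% intervals reached from a 0.743-fold to a 1.09-fold level in GF relative to Veh, so larger changes in scaled signal than these lay outside them. The samples overlapped for all 5, whereas 26.7% of all tested miRNAs had groups that did not overlap. Without Veh replicate 2, miR-23a, miR-27a and miR-24 had all GF samples below all Veh samples, beside 31.5% of all in that direction. The differences were then −0.24 to −0.13, with a smallest limma adjusted p of 0.166. With total gene signal it was miR-27a and miR-24, beside 21.2%, and in unscaled signal 0 of 5, beside 0.606%.

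miR-27a passed in this contrast when all 15 arrays were taken as independent, at −0.22 ± 0.082 (SE) with a limma adjusted p of 0.0485. That fit called 1 of 5 members and 36.4% of all tested miRNAs, and it counts the averaged pairs double. With slide as a block its adjusted p was 0.055, and 0.204 when each averaged pair was a random block. Within slide 1 the 5 differences ran from −0.17 to −0.04, and within slide 2 from −0.25 to −0.14. Leaving out Veh replicate 5 gave −0.15 to −0.03 with a smallest adjusted p of 0.396.

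Between DM and Veh hearts, which ask what streptozotocin diabetes does, none of the 5 miRNAs passed the test. DM minus Veh was 0.04 ± 0.085 (SE) for miR-23a, 0.09 ± 0.090 for miR-23b, 0.09 ± 0.108 for miR-27a, 0.12 ± 0.090 for miR-27b and 0.04 ± 0.096 for miR-24. Limma adjusted p ran from 0.623 to 0.913, 0% of all tested miRNAs passed, and 0 of 5 had an unadjusted p under 0.05, against 8.48% of all. With 15 arrays 0 of 5 passed, against 1.82% of all. The 95% intervals reached from 0.884-fold to 1.26-fold in DM relative to Veh. The median of 0.09 stood beside 0.03 over all tested miRNAs, and the samples overlapped for all 5 where 6.06% of all did not. The sign was not the same on both slides, with 0.08 to 0.16 on slide 1 and −0.07 to 0.08 on slide 2. Without Veh replicate 5 the differences were 0.07 to 0.18, with a smallest adjusted p of 0.251. Then 2 of 5 members had all DM samples above all Veh samples, beside 23% of all tested miRNAs.

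Between GF and DM hearts, which differ in glucose swings, starvation and insulin together, the 5 miRNAs lay furthest apart but did not pass either. GF minus DM was −0.14 ± 0.091 (SE) for miR-23a, −0.19 ± 0.096 for miR-23b, −0.28 ± 0.115 for miR-27a, −0.20 ± 0.096 for miR-27b and −0.19 ± 0.102 for miR-24. Limma adjusted p ran from 0.408 to 0.502, and 0 of 5 members and 0% of all tested miRNAs passed. At an unadjusted p under 0.05 it was miR-27a alone (0.0359), beside 10.9% of all. With 15 arrays 0 of 5 passed (adjusted p 0.0878 to 0.150), against 3.64% of all, while 5 of 5 had an unadjusted p under 0.05, against 27.9%. The 95% intervals reached from 0.688-fold to 1.04-fold in GF relative to DM. Leaving out DM replicates 3 and 5 gave −0.39 to −0.15 with a smallest limma adjusted p of 0.0904. Then 0 of 5 members passed, beside 6 of 165 miRNAs, so the counts in this contrast depend on that sample.

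The GF samples all lay below the DM samples for 4 of 5 members (miR-23a, miR-23b, miR-27a and miR-27b), beside 12.7% of all tested miRNAs in that direction and 14.5% in either. The gap was narrow in miR-27a, with 13.13 as the highest GF and 13.16 as the lowest DM sample. The 4 are not separate cases, since their values correlate over the samples. On 15 arrays it was 3 of 5, beside 7.88% of all in that direction. The median of −0.19 stood beside −0.08 over all tested miRNAs, and the differences were below 0 on both slides, with −0.29 to −0.19 on slide 1 and −0.22 to −0.12 on slide 2. In unscaled signal and in the authors' deposited log2 values 0 of 5 members had all GF samples below DM, beside 0% of all, and the differences were above 0.

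The direction of all 3 contrasts depends on the scaling. With no scaling between arrays, GF minus Veh was 0.13 to 0.24 for the 5 members, beside a median of 0.25 over all tested miRNAs, and DM minus Veh was −0.09 to −0.01, beside −0.10. GF minus DM was 0.17 to 0.30, beside 0.35. Under both of these settings the members lay below the median of all miRNAs in GF relative to both other groups, and above it in DM relative to Veh. With normexp background correction they did not, with DM minus Veh at 0.03 to 0.11 beside a median of 0.12. None passed without scaling (limma adjusted p 0.264 to 0.998). The unscaled 95% intervals were wider, from 0.831-fold to 1.55-fold for GF relative to Veh. The sample averaged from GF replicates 2 and 4, which gave the lowest scaled signal of each of the 5 miRNAs, also had the highest 75th percentile of the 10 samples, at 3120, and the part of brightness in these differences was not tested.

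**Figure D2:**
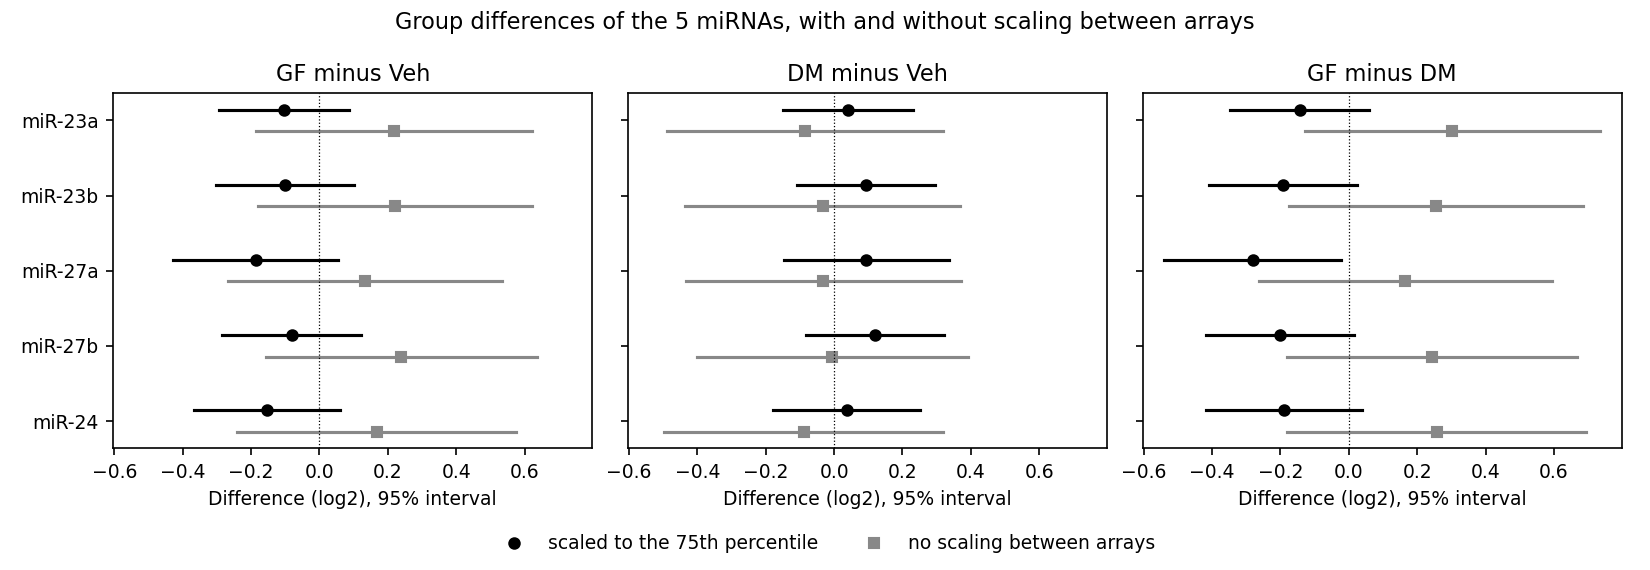
Difference between groups (log2, x axis) of each miRNA with its 95% interval from limma, for GF minus Veh, DM minus Veh and GF minus DM, after scaling to the 75th percentile (black circles) and with no scaling between arrays (grey squares). The sign of every difference turns between the scaled and unscaled values, and GF minus DM of miR-27a after scaling is the only interval that leaves out 0.

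Over the samples of all groups the 5 miRNAs mostly lay to the same side of their means. In GF replicates 2 and 4 and in Veh replicate 2, 5 of 5 were below their own mean over the 10 samples, and in DM replicate 1, DM replicates 2 and 4 and Veh replicate 5, 5 of 5 were above it. In DM replicates 3 and 5 they split, with miR-27a and miR-24 below their means and the other 3 above, and in Veh replicate 4 they split with 3 below and 2 above. In the other samples 4 of 5 lay on 1 side. Over the 10 samples, Pearson's r between members ran from 0.64 (miR-23b with miR-27a) to 0.91 (miR-23b with miR-27b), and Spearman's rho from 0.60 to 0.90. Without the 2 samples farthest from the median, r was 0.45 to 0.82. Samples of all groups, array and scaling are shared between the points, so these values are a description. The highest r joined miRNAs of the b cluster, while miR-23a and miR-27a of the a cluster gave 0.75. The paralogs gave 0.89 for miR-23a with miR-23b and 0.83 for miR-27a with miR-27b.

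**Figure D3:**
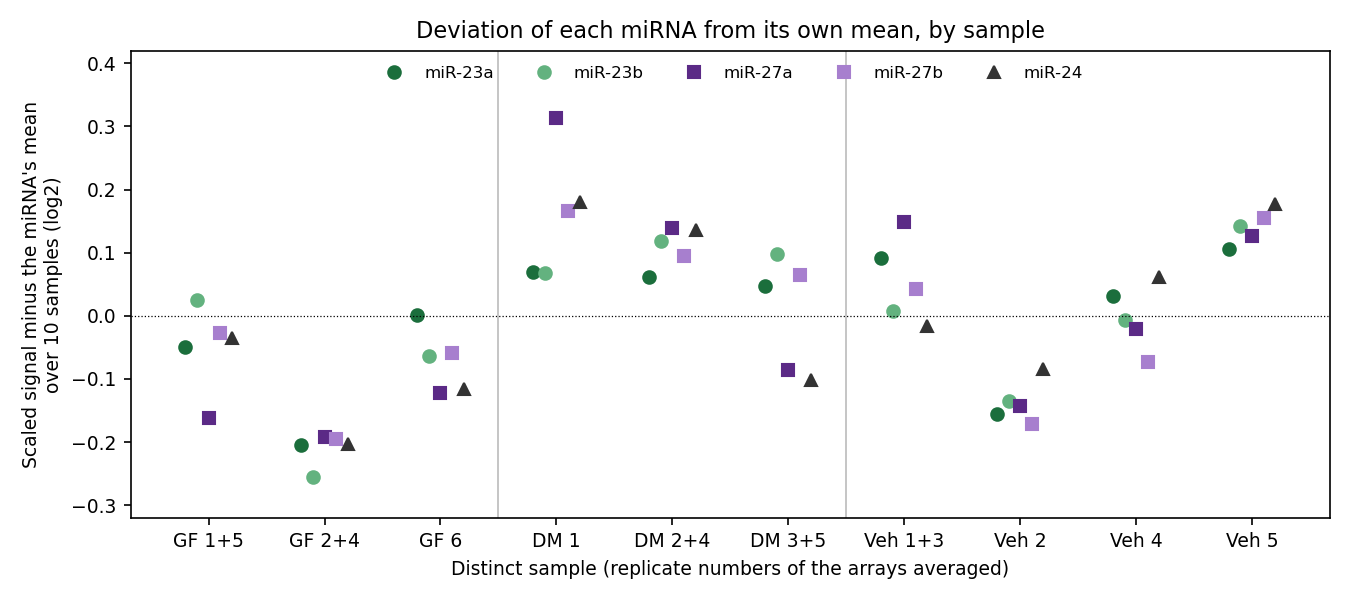
Scaled signal of each miRNA minus its own mean over the 10 distinct samples (log2, y axis), by sample (x axis, GF, DM and Veh from left to right, with the replicate numbers averaged). The 5 markers of a sample mostly lie on 1 side of 0, with all 5 below it in GF replicates 2 and 4 and in Veh replicate 2, in signal scaled to the 75th percentile.

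A constant scaling of an array cancels in the ratio of the paralogs, which shows only whether they changed unequally. The log2 ratio of miR-23a to miR-23b was 0.62 ± 0.076 in GF, 0.57 ± 0.032 in DM and 0.63 ± 0.055 in Veh (SD, n = 3, 3 and 4). GF minus Veh was −0.0026 (exact two-sided permutation test, p = 0.914), DM minus Veh was −0.05 (p = 0.286) and GF minus DM was 0.05 (p = 0.4). The mean ratio of the a and b forms of miR-23 in GF and in Veh differed by less than the SD, and its sign turned with single samples left out. The log2 ratio of miR-27a to miR-27b was 0.26 ± 0.069 in GF, 0.34 ± 0.151 in DM and 0.37 ± 0.055 in Veh. GF minus Veh was −0.11 (exact permutation p = 0.114), DM minus Veh was −0.03 (p = 0.743) and GF minus DM was −0.08 (p = 0.5). Over the 6 tests the adjusted p ran from 0.686 to 0.914. With so few samples an exact test cannot go below 0.0571 for 3 against 4 or 0.1 for 3 against 3, so none of the 6 could have passed.

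**Figure D4:**
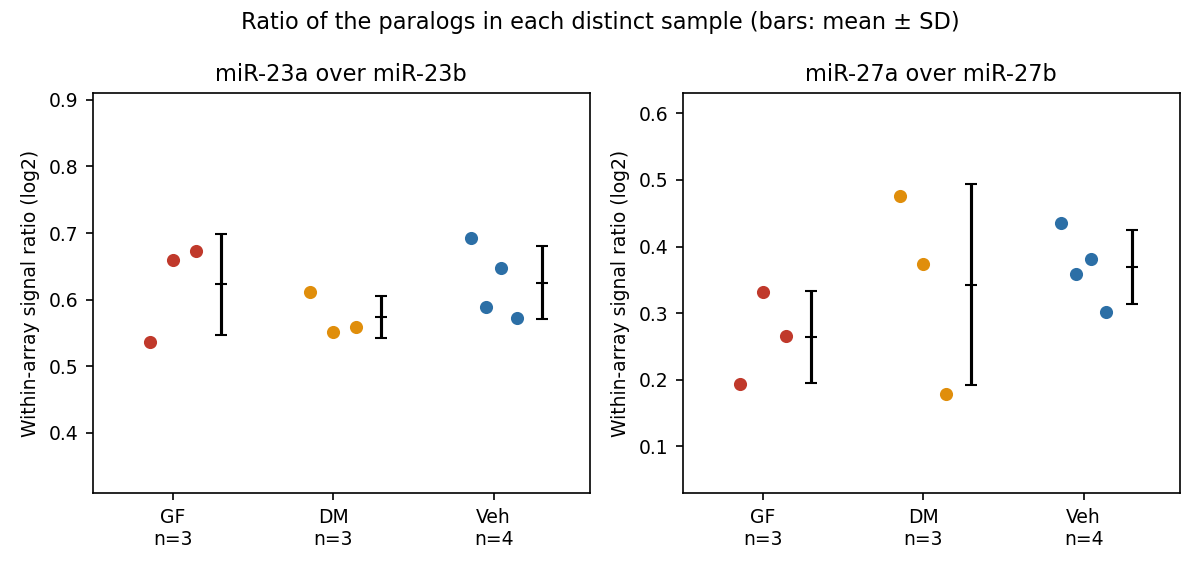
Log2 ratio of the signals within an array (y axis) of miR-23a to miR-23b and of miR-27a to miR-27b in each distinct sample (points) of GF, DM and Veh, with mean and SD as bars. All groups overlap in both panels, and the widest spread is that of miR-27a to miR-27b in DM, from 0.18 to 0.48.

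Both probes of each member gave the same sign in 15 of 15 combinations of member and contrast after scaling, and the differences from the 2 probes were 0.0036 to 0.056 apart. Of the star forms, the strands from the other arm of the hairpin that are usually degraded, 4 were on the array. miR-24-2*, from the a cluster, was well above background on 15 of 15 arrays, while miR-23a*, miR-24-1* and miR-27a* were so on 0 of 15. The star strands of the 2 miR-24 genes differ in sequence, whereas miR-24 itself is the same from both. How far their signals follow the share of each cluster in miR-24 was not tested. With the seed in capitals they read as follows.
miR-24-1*: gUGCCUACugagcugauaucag
miR-24-2*: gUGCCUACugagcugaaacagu
They share the seed and differ at 5 positions from base 17 on, by U17A, U19C, C20A, A21G and G22U. miR-24-2* had 8.15, 7.97 and 8.25 in GF hearts, 8.62, 8.49 and 8.15 in DM hearts and 8.43, 8.11, 8.27 and 8.31 in Veh hearts. The groups overlapped, with GF replicates 2 and 4 again lowest and DM replicate 1 highest. The differences in scaled signal were −0.16 ± 0.126 (SE) for GF minus Veh, 0.14 ± 0.126 for DM minus Veh and −0.30 ± 0.135 for GF minus DM, with limma adjusted p of 0.445, 0.678 and 0.418.

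The 7 bases of the miR-27 seed also stand at the start of miR-128-3p, shifted by 1 base, which a sequence comparison over RefSeq's rat miRNAs found (the shared bases in capitals).
miR-128-3p: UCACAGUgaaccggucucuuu
On the array, miR-128 gave 0.18 for GF minus Veh, 0.15 for DM minus Veh and 0.02 for GF minus DM, with limma adjusted p of 0.495, 0.725 and 0.960. Its values did not pass in any contrast either. For miR-24, the comparison found its seed shifted by 1 base in miR-222-5p, a name that is not on the array.

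The miRNAs with the most similar profile over the 10 samples were, for miR-23a, let-7i (r = 0.88), miR-214 (0.84) and miR-22 (0.80). For miR-23b they were miR-29c* (0.89), miR-674-3p (0.89) and miR-214 (0.85), and for miR-27b miR-674-3p (0.91), miR-130a (0.91) and miR-33 (0.84). For miR-27a they were miR-872 (0.95), miR-130a (0.87) and miR-9* (0.86), and for miR-24 they were miR-199a-5p (0.92), miR-221 (0.91) and miR-130a (0.89). All are Pearson's r of scaled signal over samples that share groups and scaling, and without the 2 farthest samples miR-872 with miR-27a still gave 0.94, whereas miR-33 with miR-27b gave 0.64.

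Other miRNAs known for the processes in which these clusters work were counted from fixed lists. Of 11 tested miRNAs of vessel growth, miR-20a, a member of the miR-17 family, passed in GF against Veh and was higher (0.47, limma adjusted p 0.0367), while none was lower. That is 1 of 11, beside 7.88% of all tested miRNAs. Of 11 tested miRNAs of heart hypertrophy, miR-208, which is encoded in a myosin heavy chain gene, passed and was lower (−1.34, limma adjusted p 0.0194), with a list median of −0.38 beside −0.05 over all tested miRNAs. That is again 1 of 11. Both calls were lost in the authors' deposited log2 values (limma adjusted p 0.0618 each) and with no filter on dim probes (0.120 each), and that of miR-20a with the total gene signal (0.0646). Of 9 tested miRNAs of lipid and glucose metabolism, 0 passed. In DM against Veh and in GF against DM 0% of all tested miRNAs passed, so the lists had no calls there either. Without any one of GF replicates 2 and 4, Veh replicates 1 and 3, Veh replicate 2 or Veh replicate 4, 0 of 165 miRNAs passed in GF against Veh, so each of these calls, and those of the markers named next, rests on those samples.

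The tissue is whole heart, in which fewer cells of a type and less RNA per cell cannot be told apart. Of the endothelial markers, 3 of 4 were above background on all arrays and miR-222 on none. Their summed scaled signal was 15764 to 17115 in GF, 17632 to 20956 in DM and 19449 to 23958 in Veh, so the GF sums lay below the others. The list median was −0.37 for GF minus Veh, beside −0.05 over all tested miRNAs, and −0.18 for GF minus DM, beside −0.08. Of these markers 0 of 3 passed in any contrast over distinct samples. Of 4 tested epithelial markers, miR-200c (2.58) and miR-141 (2.41) passed in GF against Veh and were higher (limma adjusted p 0.0194 each). miR-200a (0.07) and miR-200b (0.016) did not pass. Of these markers 1 was above background on all arrays, since 3 arrays of 1 group above background were enough for testing. Of 4 tested leukocyte markers, miR-142-5p (−0.64) passed and was lower (limma adjusted p 0.0367), while miR-223 (0.51), miR-150 (−0.0097) and miR-142-3p (−0.48) did not pass. The call of miR-142-5p was lost without scaling (−0.32, limma adjusted p 0.316). It was also lost with scaling over all probes (0.155), quantile normalization (0.0960) and the authors' deposited log2 values (0.331). All 3 calls were lost with no filter on dim probes (0.120 for miR-200c and miR-141, 0.130 for miR-142-5p), where 0 of 350 miRNAs passed. The summed epithelial signal was 362 to 480 in GF, 143 to 444 in DM and 88.0 to 167 in Veh. The lowest value that the processing allowed for a single miRNA was 19.8. How far that limit shaped the epithelial differences was not tested. Of the markers of fibroblasts, smooth muscle and red cells and of neuronal miR-9, 0 of 3, 2, 2 and 1 passed in any contrast over distinct samples. With 15 arrays taken as independent, 3, 0, 2 and 1 of them passed in GF against Veh, beside 36.4% of all tested miRNAs. Of the 3 fibroblast markers 1 was higher and 2 were lower, while the red cell markers and miR-9 were lower. In the same fit and contrast, 2 of 3 endothelial markers passed and were lower. Of 4 leukocyte markers 1 was higher and 2 were lower, and of 4 epithelial markers 2 were higher. In DM against Veh both red cell markers passed there and were lower, beside 1.82% of all. That fit counts the averaged pairs double. The part of these cells in the values of the 5 miRNAs was not tested.

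The authors' deposited table of filtered miRNAs held 5 of 5 members among 149. Their deposited tables of comparisons, which list 35, 20, 5 and 30 miRNAs, held 0 of 5.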

How the data were processed

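Total RNA of rat hearts (100 ng per array, labelled with Cy3) was read on 15 one-colour arrays. Per the file headers and the submitters' processing notes, the scanner software was Agilent Feature Extraction 9.5.3.1. Each deposited array file gives an intensity for every spot, from which the software had subtracted background, with no scaling across arrays. A deposited table of the authors, filtered to 149 miRNAs, gives log2 values, which recomputation from the array files matched within 2.05e-06: the log2 total gene signal minus the mean of the control arrays, unscaled. Per the file headers, the authors' deposited comparison tables hold fold changes on a log2 scale and a p-value; only the names listed in them were used.

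Flagged spots (153 to 294 on each array) were left out. The processed signal of the other spots was averaged per probe. These means were scaled to their 75th percentile over 254 probes that passed the software's background call on each of the 15 arrays (more than 0.5 of a probe's spots). They were then floored at 4.31 on the log2 scale, and each miRNA was taken from its brightest probe. From 166 to 190 of 350 miRNAs were detected per array, 0 spots were saturated, and 165 miRNAs, well above background on at least 3 arrays of 1 group, were tested. Arrays of 1 group with a reduced chi-square under 1 over 156 miRNAs (5 of 105 pairs) were averaged, leaving 10 samples. Groups were compared with limma 3.58.1 (R 4.3.3; lmFit and eBayes, Benjamini-Hochberg within a contrast, threshold 0.05) on all 3 groups, and paralog ratios with exact permutation tests (scipy 1.17.1). The 3 contrasts share samples. On simulated samples for GF minus Veh, 96.1% of 40 miRNAs changed by 1 on the log2 scale among 165 were recovered, so smaller changes such as those of the members were not covered. The array files hold no mean signal per spot, so the normexp alternative used the median signal, with an offset of 50. The members, the lists and the rules were chosen with earlier results of these data known. The miRNAs named are the members, their star forms, those sharing a member's seed directly or shifted by 1 base, the 3 most correlated with each member, and list members that passed.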

Additional observations from a re-analysis of the deposited data

How the results depend on the processing

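No simulation tested changes as small as those of the members, and the intervals bound only the scaled signal. The count of members past the threshold was 0 in every contrast under all alternatives tried (other scalings, background correction, probe summaries, the authors' values, arrays as replicates, blocks, no filter, and each sample left out), except for GF minus Veh with 15 arrays taken as independent, where it was 1 (miR-27a, −0.22, limma adjusted p 0.0485). With the replicate number as a block on 15 arrays it was 0 in each contrast, with miR-27a at an adjusted p of 0.0697. Same-numbered arrays were not steadily alike (r from −0.53 to 0.47, over 0.1 in 6 of 13 pairs), which cannot exclude a pairing of the samples. The numbers are those of the sample titles, and the authors' deposited table numbers some GF arrays otherwise. The block moved the count over all miRNAs to 50, 4 and 1 for GF minus Veh, DM minus Veh and GF minus DM, against 60, 3 and 6 without it.

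Signs turned without scaling and in the authors' unscaled log2 values, in the order miR-23a, miR-23b, miR-27a, miR-27b and miR-24. GF minus Veh was 0.22, 0.22, 0.13, 0.24 and 0.17 without scaling, and 0.22, 0.23, 0.13, 0.23 and 0.15 in the authors' values. DM minus Veh was −0.085, −0.034, −0.032, −0.0052 and −0.089 without scaling, and −0.071, −0.017, −0.029, −0.0064 and −0.085 in the authors' values. GF minus DM was 0.30, 0.25, 0.17, 0.24 and 0.26 without scaling, and 0.29, 0.25, 0.15, 0.24 and 0.24 in the authors' values. With scaling over all probes, GF minus Veh also turned for miR-23a (0.033), miR-23b (0.035) and miR-27b (0.054). DM minus Veh turned with quantile normalization for miR-23a (−0.0097) and miR-27a (−0.0050) and with total gene signal for miR-24 (−0.0074). The unscaled values differ from the main ones in the scaling step, and the authors' values also in the probe summary. The cause of the other turns was not tested.

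With each sample left out in turn, DM minus Veh ran from −0.017 to 0.070 for miR-23a, −0.0014 to 0.198 for miR-27a and −0.018 to 0.123 for miR-24. It turned without Veh replicate 2 (miR-23a −0.017, miR-24 −0.0027) and without DM replicate 1 (miR-24 −0.018, miR-27a −0.0014). GF minus Veh and GF minus DM of the 5 members stayed below 0 in these fits, from −0.24 to −0.02 and from −0.39 to −0.08. The ratio of miR-23a to miR-23b in GF minus Veh turned with quantile normalization (0.076), and ran from −0.028 to 0.041 with each sample left out. That of miR-27a to miR-27b in DM minus Veh ran from −0.093 to 0.056. The count of members with all GF samples below the DM samples, an alternative set chosen after seeing the data, was 0 with scaling over all probes, 0 without scaling and 0 in the authors' values. Of all miRNAs 1.21%, 0% and 0% did so there. It was 3 to 5 with quantile normalization, normexp, the other probe summaries and 15 arrays, beside 6.06% to 27.3% of all. With each sample left out it was 4 or 5, beside 12.7% to 32.1% of all.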
